A study of Mus musculus with 48 samples.

Results

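Transforming growth factor beta (TGF-beta) is a secreted regulator of matrix production, contraction and immune tolerance. It leaves the cell in a latent complex, is stored in the matrix through latent TGF-beta binding proteins and becomes active when integrins or proteases release it. The freed ligand binds the receptor encoded by *Tgfbr2*, which recruits and phosphorylates the one encoded by *Tgfbr1*, and SMAD transcription factors then carry the signal to target genes. The 9 genes described here cover these steps, namely the ligands *Tgfb1*, *Tgfb2* and *Tgfb3*, the signalling receptors *Tgfbr1* and *Tgfbr2*, the co-receptors *Tgfbr3* (betaglycan) and *Eng* (endoglin), the storage protein *Ltbp1* and the target *Tgfbi*. They were taken by symbol from the probe annotation of the array, with the brightest probe standing for a gene, and make up 9 of the 13349 genes tested. Of their 23 probes, 14 were above background in at least 1 group, and every gene had such a probe.

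Expression was measured on Illumina mouse bead arrays in stromal cells of skin-draining lymph nodes (LNs). The tumor groups came from mice given Eμ-*Myc* B lymphoma cells intravenously (200000 to 400000 cells per mouse), whose LNs held lymphoma cells at 4 to 10% of lymphocytes, and the naive groups came from wild-type mice without lymphoma. Eμ-*Myc* cells carry *Myc* under an immunoglobulin heavy chain enhancer, which is active in B cells. Per the methods, mice of both sexes aged 8 to 12 weeks served in all experiments, groups being matched for sex, and wild-type animals were C57BL/6N. The paper with these methods credits the arrays to an earlier publication and does not say whether its statements cover the array mice. Age, sex and strain are not listed per array sample. After digestion and depletion of CD45+ cells, 4 populations were sorted from each state. These were fibroblastic reticular cells (FRCs, CD31-gp38+), which build the T-zone network, blood endothelial cells (BECs, CD31+gp38-), lymphatic endothelial cells (LECs, CD31+gp38+) and double-negative cells (DN, CD31-gp38-). Each of the 8 groups had 3 replicates of 80 ng RNA, every one pooled from 4 to 6 sorts, and each replicate was read on 2 strips. The labels call the replicates biological without saying that they came from separate mice, so the p-values measure the spread between these pools. In the main fit the spread of a gene was taken as the same in all 8 groups. In bulk RNA, fewer cells of a type and less RNA per cell cannot be told apart.

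The sorted populations carried the markers of their labels. The mean log2 signal of 13 FRC markers was 13.08 to 13.49 in tumor and 12.78 to 13.31 in naive FRCs, against at most 12.32 elsewhere, and lists of BEC and LEC markers were likewise highest in their own populations. Pericyte and smooth muscle markers were highest in DN cells, at 10.58 to 11.01 in tumor and 10.82 to 11.35 in naive replicates. DN replicates stood apart from each other. Tumor replicate 3 and naive replicate 2 had the highest FRC marker signal among them (11.64 and 12.32, the other 4 lying between 9.78 and 10.27), and tumor replicates 1 and 2 had the highest signal of 10 leukocyte markers (11.68 and 11.12, the other 4 lying between 8.25 and 9.07). The calls of the 9 genes in DN cells are therefore given with and without these pairs of replicates. Each strip carried 863780 to 1044181 beads, a probe being read from 18 to 22 beads in the median. Each cell type lay on a slide of its own, so differences between cell types and between slides cannot be told apart, and within a slide tumor and naive samples took separate positions.

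Of the 9 genes, 3 differed between tumor and naive mice in some population. *Tgfbr1* was lower in tumor FRCs, *Tgfb1* and *Eng* were higher in tumor DN cells, and none passed the test in BECs or LECs. The sequence upstream of the RefSeq start of these 3 genes is shown because they carry the changes described below. The windows hold 250 bases before the start (GRCm38.p6, all on the plus strand), with capitals marking the letters of the GC box GGGCGG, which SP1-type factors bind, of the SMAD element CAGAC and of the AP-1 site TGACTCA, searched on both strands. The windows are chr7:25686752-25687001 for *Tgfb1*, chr4:47352972-47353221 for the first of the *Tgfbr1* starts, and chr2:32646345-32646594 for *Eng*.
Tgfb1: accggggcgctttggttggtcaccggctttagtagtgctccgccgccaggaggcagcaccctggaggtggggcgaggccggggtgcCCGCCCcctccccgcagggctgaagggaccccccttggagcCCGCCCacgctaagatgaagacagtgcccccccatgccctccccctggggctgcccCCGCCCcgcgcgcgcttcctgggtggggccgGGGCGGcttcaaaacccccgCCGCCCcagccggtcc
Tgfbr1: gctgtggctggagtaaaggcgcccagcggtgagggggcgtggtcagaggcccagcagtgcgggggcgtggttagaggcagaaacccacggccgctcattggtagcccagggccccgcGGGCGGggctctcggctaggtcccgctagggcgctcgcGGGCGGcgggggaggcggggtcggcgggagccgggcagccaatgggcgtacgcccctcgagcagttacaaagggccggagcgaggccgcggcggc
Eng: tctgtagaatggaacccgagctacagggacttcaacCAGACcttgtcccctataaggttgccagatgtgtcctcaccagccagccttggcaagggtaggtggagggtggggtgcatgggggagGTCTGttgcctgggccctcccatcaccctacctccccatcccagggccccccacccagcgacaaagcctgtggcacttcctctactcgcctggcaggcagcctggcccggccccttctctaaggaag
The *Tgfb1* window held 5 GC boxes and the *Tgfbr1* window held 2, and neither held a SMAD element. The 250 bases before the other annotated *Tgfbr1* start (chr4:47385966-47386215), not printed, held 1 SMAD element and no GC box. The *Eng* window held 2 SMAD elements, CAGAC and its reverse complement GTCTG, and no GC box. No AP-1 letters were found in any of the 3. Among 32851 promoter windows of this length, 32.7% held a GC box, 42.2% a SMAD element and 4.46% an AP-1 site. RefSeq windows were matched for 7 of the 9 genes.

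**Figure D1:**
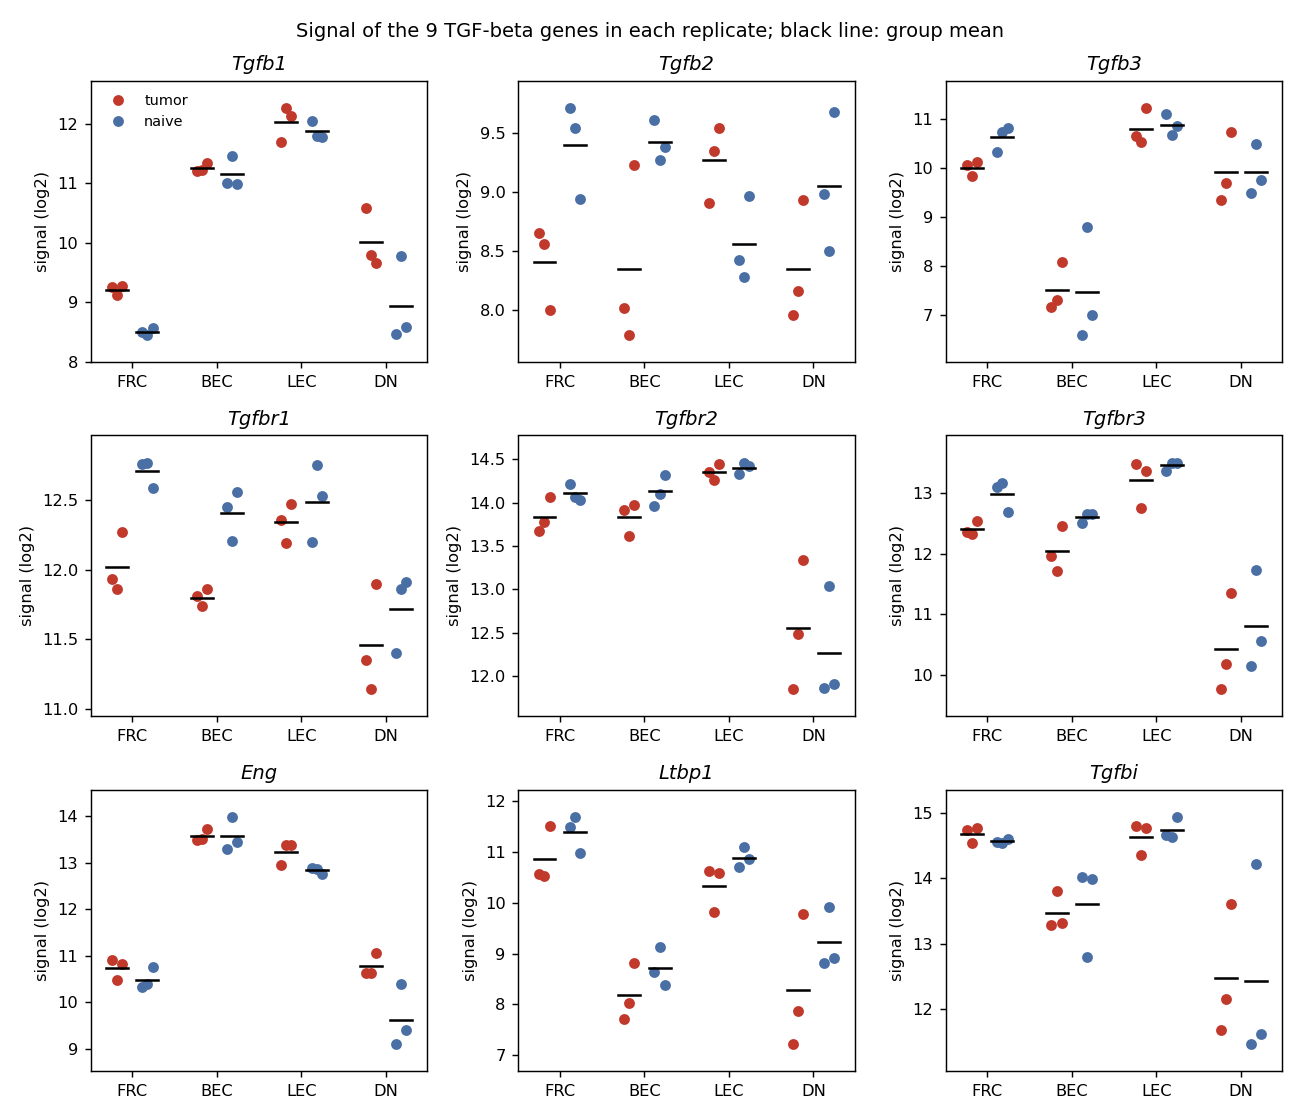
Log2 signal (y axis, own range per panel) of each gene in every replicate of FRCs, BECs, LECs and DN cells (x axis), with tumor replicates in red on the left, naive replicates in blue on the right and black lines for group means (n = 3). *Eng* and *Tgfb1* lay highest in the endothelial populations, *Ltbp1* lay highest in FRCs and LECs, and the DN replicates spread more than the others for *Tgfbi*.

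Levels in naive mice set the populations apart for 8 of the 9 genes (limma F test across the 4 cell types, adjusted p under 0.05), where 68.2% of all genes passed the same test. The exception was *Tgfb2* (adjusted p = 0.12). Between pairs of naive populations, the share of all genes called was 40.6% for FRCs against BECs, 33.4% for FRCs against LECs, 38.2% for FRCs against DN cells, 21.9% for BECs against LECs, 51.7% for BECs against DN cells and 44.6% for LECs against DN cells. The 3 ligand genes had different orders. *Tgfb1*, the ligand with the main role in immune tolerance, averaged 11.87 ± 0.15 in naive LECs and 11.15 ± 0.26 in naive BECs (log2 signal, SD, n = 3), with every LEC value above every BEC value, a difference that missed the threshold (BECs minus LECs -0.72, SE 0.27, adjusted p = 0.069). Both endothelial populations lay above naive DN cells (8.94 ± 0.73) and naive FRCs (8.5 ± 0.06), with BECs 4.64-fold above DN cells (adjusted p = 2e-06) and DN cells against FRCs not passing the test (adjusted p = 0.22). *Tgfb3* ran differently. It averaged 10.89 ± 0.21 in LECs, 10.64 ± 0.26 in FRCs and 9.92 ± 0.52 in DN cells, with no neighbors passing the test, and 7.47 ± 1.17 in BECs, 5.45-fold below DN cells (adjusted p = 0.00013). The BEC values of *Tgfb3* were uneven, at 6.60, 8.81 and 7.01 in the naive replicates. *Tgfb2* averaged 9.42 ± 0.17 in naive BECs, 9.40 ± 0.40 in FRCs, 9.05 ± 0.59 in DN cells and 8.56 ± 0.37 in LECs.

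Receptor signal was lowest in DN cells for all 4 receptor and co-receptor genes. *Tgfbr2*, whose product binds the ligand first, averaged 14.40 ± 0.07 in naive LECs, 14.13 ± 0.18 in BECs and 14.11 ± 0.10 in FRCs, with no neighbors passing the test, and 12.27 ± 0.67 in DN cells, which was 3.57-fold below FRCs (adjusted p = 9.8e-05). *Tgfbr1* spanned a narrower range, with 12.71 ± 0.10 in FRCs, 12.49 ± 0.27 in LECs, 12.41 ± 0.18 in BECs and 11.72 ± 0.28 in DN cells, and DN cells lay 1.61-fold below BECs (adjusted p = 0.0061). *Tgfbr3*, the co-receptor that presents ligand to the signalling receptors, averaged 13.46 ± 0.08 in LECs, 12.98 ± 0.26 in FRCs, 12.60 ± 0.09 in BECs and 10.81 ± 0.82 in DN cells, 3.46-fold below BECs (adjusted p = 0.00037). *Eng*, a co-receptor best known from endothelium, was the only gene for which every step of the order passed the test. It averaged 13.57 ± 0.36 in BECs and 12.84 ± 0.07 in LECs (adjusted p = 0.045 between them), then 10.49 ± 0.23 in FRCs, 5.08-fold below LECs (adjusted p = 4.6e-07), and 9.63 ± 0.67 in DN cells, 1.81-fold below FRCs (adjusted p = 0.013).

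The storage and target genes had their highest means in FRCs and LECs. *Ltbp1*, which tethers latent TGF-beta to the matrix, averaged 11.39 ± 0.37 in naive FRCs and 10.89 ± 0.21 in naive LECs (adjusted p = 0.49), against 9.22 ± 0.61 in DN cells, 3.19-fold below LECs (adjusted p = 0.0091), and 8.71 ± 0.38 in BECs. *Tgfbi*, which encodes a secreted matrix protein that binds integrins and was named for its induction by TGF-beta, averaged 14.73 ± 0.17 in LECs, 14.56 ± 0.03 in FRCs, 13.60 ± 0.69 in BECs and 12.43 ± 1.54 in DN cells. No neighbors in that order passed the test for *Tgfbi*. Its DN values were 11.47, 14.21 and 11.62, so that replicate 2, the one with the high FRC marker signal, came close to the FRC values and the others did not.

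In FRCs, the comparison of tumor with naive mice called 1 of the 9 genes, *Tgfbr1*, where 10.3% of all genes were called and 4.05% were called lower. *Tgfbr1* read 11.93, 11.86 and 12.27 in tumor FRCs, against 12.76, 12.77 and 12.59 in naive FRCs. All tumor values lay below all naive values, with means of 12.02 ± 0.22 and 12.71 ± 0.10 (SD, n = 3), a 1.61-fold lower signal (log2 difference -0.68, SE 0.19, adjusted p = 0.029). The dimmer second probe of *Tgfbr1* gave -0.60 in FRCs (adjusted p = 0.11) and -0.13 in BECs (adjusted p = 0.83). The call was lost without naive replicate 1 (log2 difference -0.66, adjusted p = 0.1), naive replicate 2 (-0.65, adjusted p = 0.094), tumor replicate 1 (-0.64, adjusted p = 0.1) or tumor replicate 2 (-0.60, adjusted p = 0.14). It was also lost when only second strips were used (-0.69, adjusted p = 0.11), with the methods' t-test, which fits each gene and population by itself (adjusted p = 0.074), and with the replicate number as a block (adjusted p = 0.058).

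Other genes separated the FRC groups without passing the test. *Tgfb1* read 9.26, 9.12 and 9.27 in tumor FRCs, against 8.49, 8.45 and 8.56 in naive FRCs, so that no values overlapped (log2 difference 0.71, SE 0.27, adjusted p = 0.11). With the 6 FRC replicates fitted alone, which uses only their own small spread, the same difference passed (adjusted p = 0.01). *Tgfb2* went the other way, with 8.65, 8.56 and 8 in tumor FRCs, against 9.71, 9.54 and 8.94 in naive FRCs (log2 difference -0.99, SE 0.36, adjusted p = 0.087). *Tgfb3* (-0.63, SE 0.44, adjusted p = 0.41) and *Tgfbr3* (-0.58, SE 0.36, adjusted p = 0.34) also had every tumor value below every naive value. In all, 5 of the 9 genes had groups that did not overlap in FRCs, 1 of them higher and 4 lower, where 39.1% of all genes had such groups (19.3% higher and 19.7% lower). The median difference of the 9 genes in FRCs was -0.52, against -0.02 over all genes. *Tgfbr2*, *Ltbp1*, *Eng* and *Tgfbi* had overlapping values, and *Tgfbi* stayed close in the groups at 14.73, 14.54 and 14.76 in tumor FRCs, against 14.55, 14.53 and 14.59 in naive FRCs. The leukocyte markers averaged 7.53, 7.55 and 8.82 in tumor FRCs, against 7.07, 6.60 and 7.02 in naive FRCs, with *Ptprc* at background in both and none of the 9 leukocyte genes tested called. Of 8 myeloid markers tested, 2 were called higher in tumor FRCs, *Cd14* (means 11.43 in tumor and 9.63 in naive) and *Csf1r* (6.56 in tumor and 5.62 in naive), and the list averaged 6.14 to 6.67 in tumor FRCs, against 5.73 to 5.85 in naive FRCs. Pericyte and smooth muscle markers averaged 9.92 to 10.13 in tumor FRCs, against 9.13 to 9.64 in naive FRCs, with 1 of 10 called higher (*Mcam*, log2 difference 3.22). Of 13 FRC markers 2 were called higher in tumor FRCs, *Madcam1* (2.2), which is also on the LEC list, and *Des* (1.92). Of 12 BEC markers 1 was called higher (*Sele*, 2.48), with the list at a mean of 8.66 in tumor and 8.75 in naive FRCs. Of 5 platelet markers 1 was called higher (*Pf4*, 3.14) and 1 lower (*Gp1bb*, -1.27). The part of other cells in the FRC differences was not tested.

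**Figure D2:**
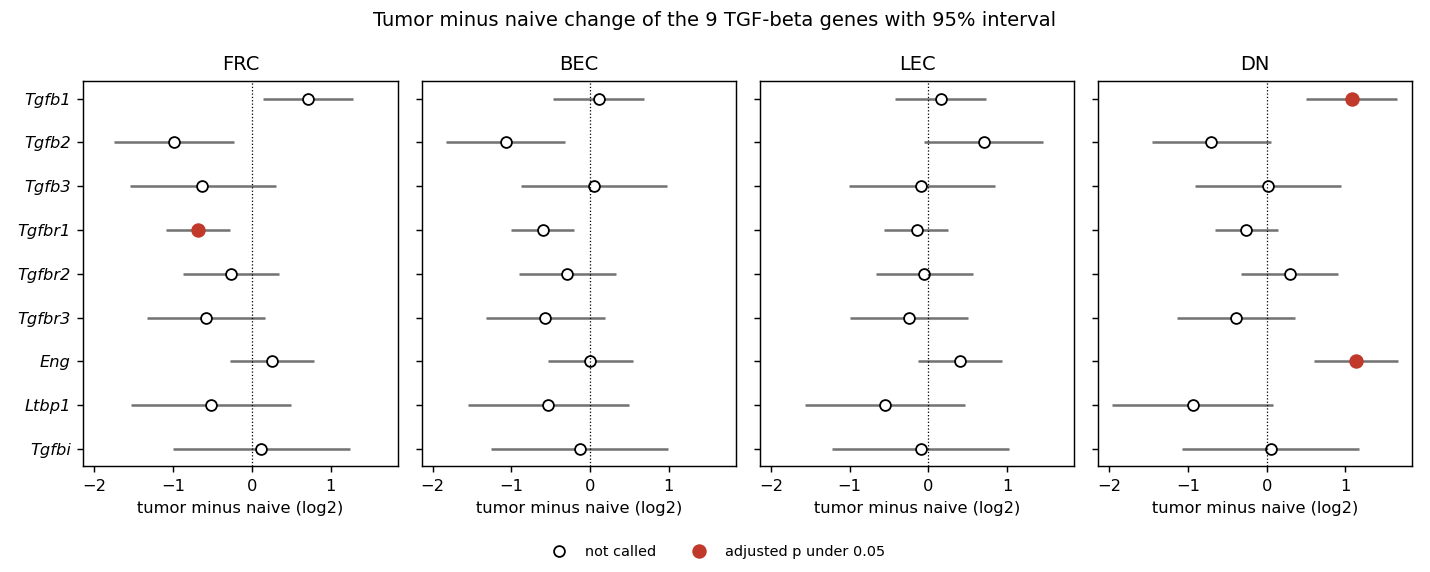
Difference in log2 signal between tumor and naive mice (x axis) for each of the 9 genes (y axis) in FRCs, BECs, LECs and DN cells, with bars for the 95% interval of the limma fit. Filled red points passed the adjusted p of 0.05, namely *Tgfbr1* in FRCs and *Tgfb1* and *Eng* in DN cells, and open points did not.

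None of the 9 genes was called in BECs, where 5% of all genes were. An unadjusted p under 0.05 was found for 2 of the 9, and for 19.8% of all genes. *Tgfb2* read 8.02, 7.79 and 9.23 in tumor BECs, against 9.61, 9.27 and 9.38 in naive BECs (log2 difference -1.07, SE 0.36, adjusted p = 0.094). The third tumor value lay near the naive ones, and without it the difference was -1.51 and passed (adjusted p = 0.0083). *Tgfbr1* read 11.81, 11.74 and 11.86 in tumor BECs, against 12.45, 12.21 and 12.56 in naive BECs (log2 difference -0.60, SE 0.19, adjusted p = 0.078). Tumor and naive values of both genes were separate, as were those of *Tgfbr3* (11.96, 11.71 and 12.45 in tumor BECs, against 12.50, 12.66 and 12.65 in naive BECs, adjusted p = 0.42). These 3 genes, all lower in tumor, compare with 25.7% of all genes whose groups did not overlap in BECs and 13% whose groups did so with tumor lower. *Eng* was level, with means of 13.58 ± 0.13 in tumor BECs and 13.57 ± 0.36 in naive BECs and a 95% interval of -0.53 to 0.54 for the log2 difference. *Tgfb1* was likewise close, at 11.26 ± 0.07 in tumor BECs and 11.15 ± 0.26 in naive BECs (interval -0.47 to 0.68). Leukocyte markers were at 10.09, 10.98 and 8.42 in tumor BECs, against 8.61, 8.55 and 8.33 in naive BECs, with 1 of 9 called higher (*Ptpn6*). B cell markers were at 8.51, 9.19 and 6.60 in tumor BECs, against 6.86, 6.22 and 6.61 in naive BECs, with 1 of 5 called higher (*Fcrla*). *Tgfb2* and *Tgfbr3* were lowest in tumor replicates 1 and 2, which had the higher leukocyte signal, and its part in the differences was not tested.

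LECs gave no call either, where 0.899% of all genes were called. With the brightest probes, no gene of the 9 had an unadjusted p under 0.05, as 8.74% of all genes did. The dimmer second probe of *Tgfbr3* gave -1.57 in LECs (SE 0.56, adjusted p = 0.32), against -0.25 with the brighter one. *Tgfb2* read 8.91, 9.35 and 9.54 in tumor LECs, against 8.42, 8.28 and 8.97 in naive LECs (log2 difference 0.71, SE 0.36, adjusted p = 0.62), the opposite sign to the other populations. *Eng* read 12.96, 13.38 and 13.39 in tumor LECs, against 12.88, 12.87 and 12.75 in naive LECs, with no overlap (log2 difference 0.40, SE 0.26, adjusted p = 0.77). *Ltbp1* read 10.63, 9.81 and 10.58 in tumor LECs, against 10.71, 11.11 and 10.86 in naive LECs, again with no overlap (-0.55, SE 0.49, adjusted p = 0.91). Such separation was found for 20.4% of all genes in LECs, with tumor higher for 11.2% and lower for 9.2%. *Tgfbr2* was the most even of the receptors, at 14.35 ± 0.09 in tumor LECs and 14.40 ± 0.07 in naive LECs.

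In DN cells 2 of the 9 genes were called, where 7.25% of all genes were, and both were higher in tumor, as were 4.7% of all genes. *Eng* read 10.63, 10.63 and 11.06 in tumor DN cells, against 9.11, 10.39 and 9.40 in naive DN cells. The groups did not overlap, as for 7.93% of all genes with tumor higher, and had means of 10.77 ± 0.25 and 9.63 ± 0.67 (SD, n = 3), a 2.2-fold higher signal (log2 difference 1.14, SE 0.26, adjusted p = 0.01). *Tgfb1* read 10.58, 9.79 and 9.66 in tumor DN cells, against 8.46, 9.77 and 8.58 in naive DN cells. Here naive replicate 2 overlapped the tumor values, and the means were 10.01 ± 0.50 and 8.94 ± 0.73, a 2.11-fold higher signal (log2 difference 1.08, SE 0.27, adjusted p = 0.023). When only the 6 DN replicates were fitted, the SEs were larger, at 0.37 for *Eng* and 0.43 for *Tgfb1*. Both calls were then lost (adjusted p = 0.41 for *Eng* and 0.5 for *Tgfb1*), as they were with the methods' t-test (adjusted p = 0.56 and 0.63). The *Tgfb1* call was also lost without naive replicate 1 (log2 difference 0.84, adjusted p = 0.087), naive replicate 3 (0.90, adjusted p = 0.091) or tumor replicate 1 (0.79, adjusted p = 0.16), with the first strip alone (0.88, adjusted p = 0.06) and with the replicate number as a block (adjusted p = 0.073).

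Markers of other cells moved with the DN comparison. *Pecam1*, which encodes the CD31 that the DN gate leaves out, read 10.60, 10.57 and 11.11 in tumor DN cells, against 7.61, 9.15 and 5.74 in naive DN cells (log2 difference 3.26, SE 0.65, adjusted p = 0.0041). The replicate that was highest in tumor and the one that was highest in naive were those with the highest *Eng* of their group. Of 12 BEC markers, 3 were called higher in tumor DN cells (*Pecam1*, *Cdh5* and *Plvap*) and none lower, and their list mean was 9.82, 9.99 and 10.45 in tumor DN cells, against 8.78, 9.93 and 7.65 in naive DN cells. LEC markers had no call, at 7.56, 7.71 and 8.93 in tumor DN cells, against 7.08, 9.07 and 7.16 in naive DN cells. Leukocyte markers averaged 11.68, 11.12 and 9.07 in tumor DN cells, against 8.53, 8.25 and 8.31 in naive DN cells, with 5 of 9 tested called higher. B cell markers averaged 9.86, 9.51 and 6.95 in tumor DN cells, against 6.12, 5.90 and 5.69 in naive DN cells, with 4 of 5 tested called higher. In tumor DN cells the highest *Tgfb1* value lay in the replicate with the highest leukocyte signal. In naive DN cells the highest *Tgfb1* value (9.77, replicate 2) lay in the replicate with the lowest leukocyte signal and the highest myeloid signal. Myeloid markers averaged 9.08, 8.53 and 6.93 in tumor DN cells, against 6.75, 8.09 and 6.91 in naive DN cells. None of the 8 myeloid markers tested was called in DN cells. Without tumor replicates 1 and 2, chosen after seeing these values, neither *Eng* (1.42, adjusted p = 0.066) nor *Tgfb1* (0.73, adjusted p = 0.42) passed, with a single tumor replicate left and assumed to vary like the other groups. The part of endothelial or leukocyte RNA in the *Eng* and *Tgfb1* differences was not tested.

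**Figure D3:**
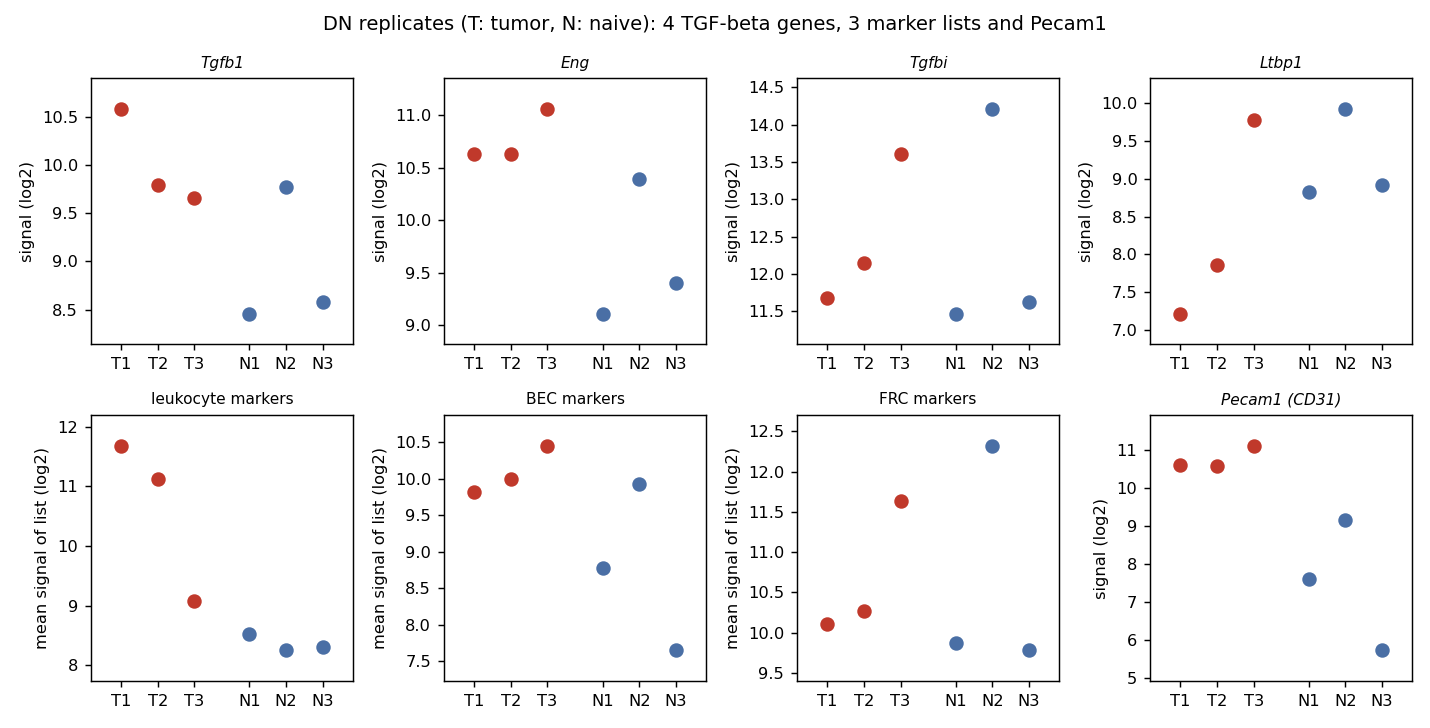
Log2 signal (y axis, own range per panel) in each DN replicate (x axis, T1 to T3 tumor in red, N1 to N3 naive in blue) of *Tgfb1*, *Eng*, *Tgfbi* and *Ltbp1* in the upper row, and of leukocyte, BEC and FRC marker lists (mean of the list) and *Pecam1* in the lower row. *Tgfbi* and the FRC markers were highest in the same replicates, T3 and N2, and all 3 tumor values of *Pecam1* lay above the naive ones.

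The other 7 genes were not called in DN cells, and several of them were high in the replicates with high FRC marker signal. *Tgfbi* read 11.68, 12.15 and 13.61 in tumor DN cells, against 11.47, 14.21 and 11.62 in naive DN cells, high in the replicate of each state that had the highest FRC marker signal (log2 difference 0.05, SE 0.54, adjusted p = 0.97). *Ltbp1* read 7.22, 7.86 and 9.78 in tumor DN cells, against 8.82, 9.92 and 8.92 in naive DN cells (-0.94, SE 0.49, adjusted p = 0.26). Tumor replicate 3 alone reached the naive range of *Ltbp1*, and without it the difference was -1.68 and passed (adjusted p = 0.0073). Leaving out tumor replicate 3 together with naive replicate 2, a choice made after seeing the marker values, raised the DN calls to 4 of 9, adding *Ltbp1* lower (-1.33, adjusted p = 0.021) and *Tgfb2* lower (-1.27, adjusted p = 0.027). Calls over all genes rose as well, with 1552 of 13349 higher and 1657 lower in DN cells (628 and 340 with all replicates). *Tgfbr3* had the same high replicates, at 9.76, 10.17 and 11.35 in tumor DN cells, against 10.15, 11.73 and 10.56 in naive DN cells, as did *Tgfbr2*, at 11.85, 12.49 and 13.34 in tumor DN cells, against 11.86, 13.04 and 11.91 in naive DN cells. *Tgfb3* (9.36, 9.70 and 10.74 in tumor, 9.49, 10.50 and 9.76 in naive) had a log2 difference of 0.02 (SE 0.44), and *Tgfbr1* one of -0.26 (SE 0.19, adjusted p = 0.46). Over the 9 genes the median difference in DN cells was 0.02, against -0.07 over all genes.

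Whether a gene answered differently to lymphoma in different populations was tested as an interaction, which 1.26% of all genes passed. None of the 9 genes passed this test (limma F test, lowest adjusted p = 0.17 for *Tgfb2*, then 0.3 for *Eng* and 0.4 for *Tgfb1*), nor did any of the 54 comparisons of a gene between a pair of populations. Over all genes these pair tests called 0.906% for FRCs against BECs, 0.607% for FRCs against LECs, 1.21% for FRCs against DN cells, 0.00749% for BECs against LECs, 0.427% for BECs against DN cells and 0.255% for LECs against DN cells. For *Tgfb2* the difference in FRCs minus that in LECs was -1.70 (adjusted p = 0.16), with the LEC difference above 0 and the FRC difference below it. For *Eng* the difference in BECs minus that in DN cells was -1.13 (adjusted p = 0.24), and for *Tgfb1* the corresponding value was -0.97 (adjusted p = 0.41). Calls in a single population are thus not shown to be particular to it. *Tgfbr1*, for example, was called in FRCs (-0.68) and not in BECs (-0.60), while its dimmer probe given above differed more between them.

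Across the 24 replicates some of the 9 genes varied together. *Tgfbr2* had *Tgfbr3* as the gene most like it on the whole array (Pearson r = 0.956), followed by *App* (0.955) and *Frmd4a* (0.954). *Eng* was most like *Pdgfb* (r = 0.982), *Cdh13* (0.975) and *Shank3* (0.974), and within the 9 it was closest to *Tgfb1* (r = 0.9). *Tgfb1* was most like *Trp53i11* (0.977), *Jak3* (0.973) and *Insl3* (0.972). *Tgfbr3* was most like *Pros1* (0.964), *Fmo1* (0.964) and *Lhfpl2* (0.962). *Ltbp1* was most like *Reck* (0.967), *Sfrp1* (0.957) and *Klhl22* (0.95), and *Tgfbi* was most like *Pcdh7* (0.964), *Zfpm2* (0.963) and *Gas7* (0.941). For *Tgfb3* the nearest were *Fhdc1* (0.948), *Lrrc75a* (0.94) and *Ppl* (0.935), and for *Tgfbr1* they were *Tnrc6c* (0.911), *Anks6* (0.896) and *Mapk8* (0.893). *Tgfb2*, whose naive level did not separate the populations, had the weakest partners, *Kif13b* (0.715), *Zfp874b* (0.714) and *Pcmtd2* (0.709). These correlations describe 24 points that share 4 cell types and slides.

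A list of 62 further TGF-beta pathway genes, of which 50 were tested and the other 12 were not analysed here, was set beside the 9 genes. In FRCs 2 rose and 2 fell, in BECs 3 rose and 1 fell, in LECs none was called (5 had an unadjusted p under 0.05, where 8.74% of all genes did), and in DN cells 2 rose. Over all genes 6.29% were called higher and 4.05% lower in FRCs, 3.54% higher and 1.46% lower in BECs, and 4.7% higher in DN cells. The median difference of the 50 genes was -0.08 in FRCs, -0.19 in BECs, -0.05 in LECs and -0.17 in DN cells, against -0.02, -0.03, 0 and -0.07 over all genes. No list was tested as a set. These counts moved with single replicates. The 4 calls in FRCs became 1 without FRC naive replicate 1 or 2 or FRC tumor replicate 1 or 2. The 4 in BECs became 0 or 1 without BEC naive replicate 1 or 3 or BEC tumor replicate 1 or 2. The 2 in DN cells became 8 without DN naive replicate 2, 7 without DN tumor replicate 3 and 1 without DN naive replicate 3. The 628 higher and 340 lower DN calls over all genes became, in turn, 1010 and 937, 1248 and 892, and 351 and 249.

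Among 13 genes of the latent complex, its storage and activation, *Nrros* was the only call. *Nrros*, which encodes a membrane protein that anchors latent TGF-beta, read 11.70, 11.07 and 9.54 in tumor DN cells, against 7.51, 7.91 and 6.31 in naive DN cells, an 11.5-fold higher signal (log2 difference 3.53, SE 0.42, adjusted p = 6e-05). All tumor values lay above all naive ones. It was bright in BECs, at 12.43 ± 0.28 in tumor and 12.37 ± 0.38 in naive, and in LECs, at 12.50 ± 0.05 in tumor and 12.55 ± 0.04 in naive, and dim in FRCs, at 6.66 ± 0.28 in tumor and 6.36 ± 0.42 in naive. Its DN values thus came nearer to those of endothelium in tumor, and among tumor DN replicates they had the order of the leukocyte markers given above. Among naive DN replicates *Nrros* was highest in replicate 2, where the leukocyte signal was lowest and the myeloid signal highest (8.09, against 6.75 and 6.91). The part of leukocyte RNA in the *Nrros* difference was not tested. With the DN replicates fitted alone the *Nrros* call was lost (adjusted p = 0.19).

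Of 15 genes of receptor partners and SMAD signalling, 1 was called. *Cd109*, a membrane protein that binds TGF-beta and restrains its receptors, read 6.90, 6.87 and 8.32 in tumor FRCs, against 8.95, 8.98 and 8.34 in naive FRCs (log2 difference -1.39, SE 0.44, adjusted p = 0.049). Replicate 3 of each state nearly met, at 8.32 in tumor and 8.34 in naive, and the call was lost under 27 of 40 alternatives. The SMAD genes measured had no call in any population.

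Of 22 genes known to be induced by TGF-beta, 2 rose and 1 fell in FRCs, 3 rose and 1 fell in BECs, none was called in LECs and 1 rose in DN cells. In FRCs *Tagln*, an actin-binding protein of contractile cells, read 11.29, 11.07 and 9.99 in tumor, against 8.40, 8.80 and 9.54 in naive (3.65-fold higher, log2 difference 1.87, SE 0.47, adjusted p = 0.017). *Ankrd1*, a nuclear cofactor that is also a known target of YAP, read 10.33, 10.41 and 8.82 in tumor FRCs, against 6.77, 7.15 and 8.23 in naive FRCs (5.55-fold higher, 2.47, SE 0.63, adjusted p = 0.017). In both genes tumor replicate 3 and naive replicate 3 were the closest to each other. *Postn*, the matrix protein periostin, fell to 6.09, 6.08 and 6.67 in tumor FRCs, against 7.91, 8.14 and 7.25 in naive FRCs (2.81-fold lower, -1.49, SE 0.22, adjusted p = 0.00035). Its signal was at background in the other populations, where means lay between 4.89 and 5.12. Leaving out naive replicate 1 or 2 or tumor replicate 1 or 2 ended the calls of *Tagln* (adjusted p 0.06 to 0.093) and *Ankrd1* (0.065 to 0.1), and the replicate block also ended that of *Ankrd1* (adjusted p = 0.059). The *Postn* call held under 39 of 40 alternatives, the exception being the methods' t-test (adjusted p = 0.084), which kept neither *Tagln* (0.12) nor *Ankrd1* (0.11).

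In BECs the induced genes *Acta2*, the smooth muscle actin, *Timp1*, an inhibitor of matrix proteases, and *Nox4*, an oxidase, were higher in tumor, and *Comp*, a cartilage matrix protein, was lower. *Nox4* read 9.37, 8.62 and 8 in tumor BECs, against 7.04, 6.73 and 6.83 in naive BECs (3.48-fold higher, log2 difference 1.80, SE 0.45, adjusted p = 0.024). *Acta2* read 13.51, 14.46 and 13.68 in tumor BECs, against 12.21, 13.29 and 12.38 in naive BECs (2.39-fold higher, 1.26, SE 0.33, adjusted p = 0.032). *Timp1* read 11.93, 12.11 and 11.10 in tumor BECs, against 10.79, 10.11 and 10.78 in naive BECs (2.22-fold higher, 1.15, SE 0.33, adjusted p = 0.048), a call lost under 25 of 40 alternatives. *Comp* read 5.4, 5.69 and 7.05 in tumor BECs, against 7.09, 7.60 and 7.47 in naive BECs (2.53-fold lower, -1.34, SE 0.30, adjusted p = 0.014), and its first tumor value was below the background level of 5.57. The groups of these 4 genes did not overlap. Without tumor replicate 2 none of these 4 calls was kept in BECs, and the same held without naive replicate 3. FRC markers averaged 8.44, 10.42 and 9.86 in tumor BECs, against 8.43, 9.29 and 8.59 in naive BECs, and their part in the BEC differences was not tested.

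The remaining induced gene with a call was *Pdgfb*, the platelet-derived growth factor chain that endothelium uses to recruit pericytes and the gene most like *Eng*. It read 10.24, 10.36 and 10.44 in tumor DN cells, against 9.06, 9.72 and 7.95 in naive DN cells (2.7-fold higher, log2 difference 1.43, SE 0.33, adjusted p = 0.012). Its means were 13.81 ± 0.13 in tumor and 13.78 ± 0.15 in naive BECs. Without naive replicate 3, the replicate with the lowest *Pecam1*, the DN difference was 0.95 and did not pass (adjusted p = 0.06). The *Pdgfb* call was also lost with the mean of all kept probes (0.73, adjusted p = 0.061). It was lost as well with the DN replicates fitted alone (adjusted p = 0.39) and with the methods' t-test (adjusted p = 0.57).

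**Figure D4:**
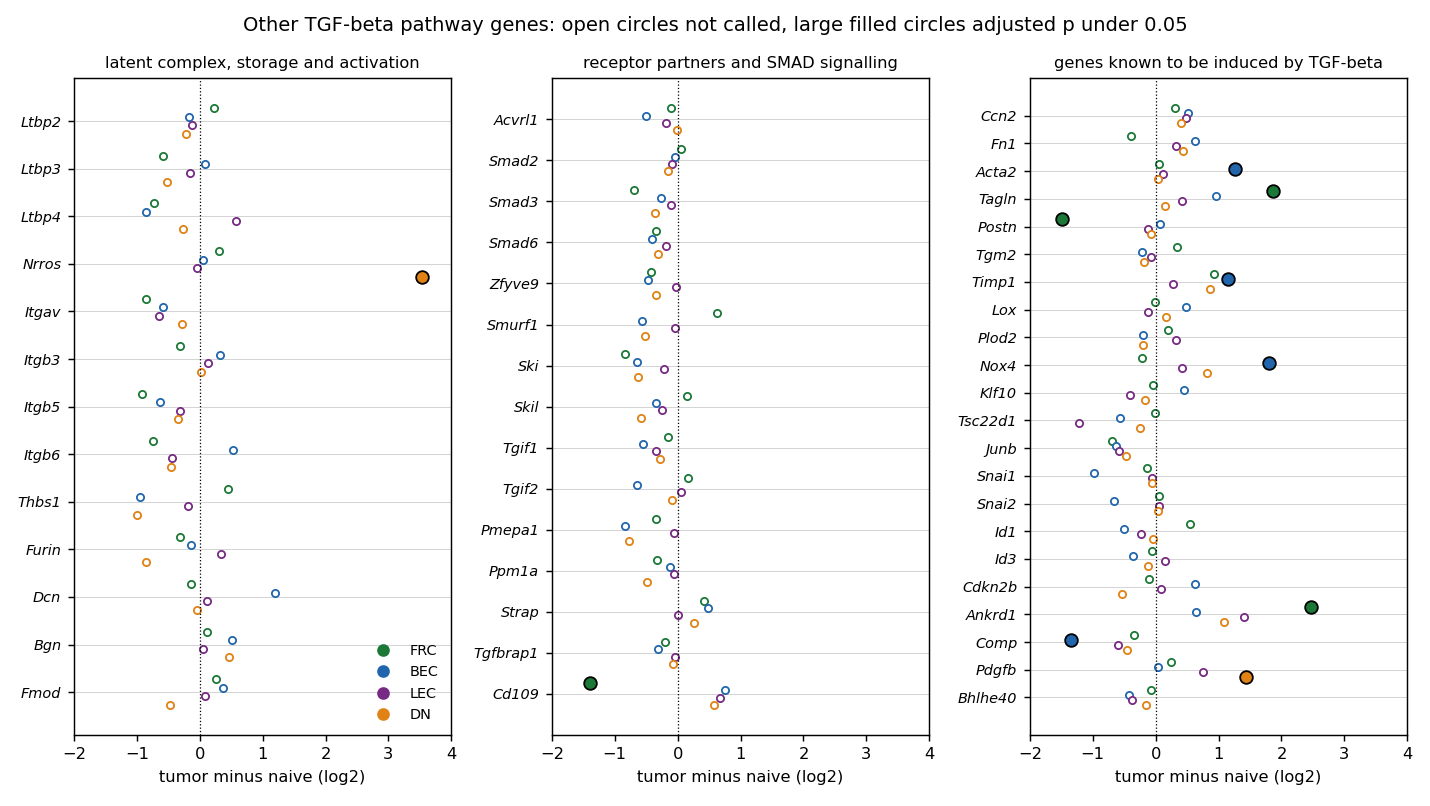
Difference in log2 signal between tumor and naive mice (x axis) for the 50 other TGF-beta pathway genes tested (y axis), in panels by role and colored by population. Large filled circles passed the adjusted p of 0.05, the farthest being *Nrros* in DN cells at 3.53, and small open circles did not.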

How the data were processed

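The authors deposited a table of log2 signal for 45281 probes on 48 strips and, for each strip, a file of bead intensity values with a local background already subtracted, as deposited values below 0 show. The normalization behind the log2 table is not given in the sources used here, and 122 of its cells are empty. Quantile normalization was applied to these log2 values across all 48 strips, and the 2 strips of a replicate were then averaged. Background was taken as the mode of all values (4.97) plus 3 robust SDs (0.20 each), at 5.57. Of 34885 probes with 1 gene symbol, 21779 had a group mean above it; the 18 probes with several symbols and 10378 with none were left out. The brightest probe per gene gave 13349 genes, 5503 of which had several such probes. Levels of different genes were not compared, since probes differ in brightness. Bead codes were linked to probes by their profile over the strips for 45092 of 45160 probes with complete values, and served only for alternatives.

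Samples were grouped by the cell type and state in their labels. All 8 group means were fitted in 1 model with limma 3.58.1 (R 4.3.3, with 16 residual and 3.19 prior degrees of freedom). Benjamini-Hochberg adjustment ran over all genes, with calls at an adjusted p under 0.05. Exact permutation of 3 against 3 cannot give a p under 0.1. Intervals are 95% intervals of the fit, and their precision rests on 3 replicates per group. All 9 genes were described. Further pathway genes were named where called, up to 3 per role and direction in a cell type, likeness was given for the 3 genes with the highest Pearson r, and markers were named where they check a label or moved with a result. The genes and lists were chosen with earlier results of these data known. An unmoderated t-test, which the methods name but not for these arrays, was run as an alternative. So were a replicate block, other normalizations, filters, probes, strips and left-out replicates. Code was tested on simulated data. Promoter windows came from RefSeq (GRCm38.p6). Python 3.11.15, numpy 2.4.6, pandas 2.3.3 and matplotlib 3.10.9 were used.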

Additional observations from a re-analysis of the deposited data

Results flagged for a closer look

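None of the 9 genes had a response to lymphoma that passed the test of a difference between populations, and of the 10 other pathway genes called in some population, *Nrros* did with signal above background in every population. For *Nrros* the tumor minus naive difference in FRCs minus that in DN cells was -3.22 (SE 0.59, adjusted p = 0.0081), for BECs minus DN cells it was -3.47 (adjusted p = 0.015) and for LECs minus DN cells it was -3.58 (adjusted p = 0.012). For *Postn* the difference in FRCs minus that in BECs was -1.56 and that in FRCs minus DN cells was -1.41. *Postn* was below background in every replicate of BECs and DN cells, where it could not fall, so these values do not show a difference in response.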

How the results depend on the processing

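Over 40 alternatives, 38 of them planned, no called value turned its sign, 10 of the 36 changes of the 9 genes kept sign and call throughout, and 21 were never called. The count of called genes in FRCs (1) became 5 with each cell type fitted alone, 6 with array weights, whose estimation stopped before convergence, and 3 without DN naive replicate 2 and DN tumor replicate 3, a choice made after seeing the data. It ran from 0 to 2 with 1 replicate left out, reaching 0 without FRC naive replicate 1 or 2 or FRC tumor replicate 1 or 2, and 2 without BEC tumor replicate 3 or DN naive replicate 2. The count in BECs (0) became 1 with the second strip alone, 1 from bead files without background correction, 4 with array weights and 0 to 1 with 1 replicate left out (1 without BEC tumor replicate 3 or DN tumor replicate 3), and 2 without DN naive replicate 2 and DN tumor replicate 3 or 1 without DN tumor replicates 1 and 2. LECs had 0 throughout. The count in DN cells (2) became 1 with the first strip alone, 0 with each cell type fitted alone, 0 with the methods' t-test, 3 with array weights (adding *Tgfb2*), 1 to 3 with 1 replicate left out (3 without DN tumor replicate 3, adding *Ltbp1*), 4 without naive replicate 2 and tumor replicate 3, and 0 without tumor replicates 1 and 2. Genes whose response differed between populations (0) became 3 with array weights, 3 without DN naive replicate 2 and DN tumor replicate 3, and 0 to 2 with 1 replicate left out (1 without BEC tumor replicate 3 and 2 without DN naive replicate 2). Naive levels differed for 8 genes, or 9 with array weights. With the second strip alone the 1 call in FRCs was *Tgfb2* in place of *Tgfbr1*.

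The replicate block gave 1 gene in FRCs (*Tgfb2* in place of *Tgfbr1*), 1 in BECs (*Tgfb2*), 0 in LECs, 1 in DN cells (*Eng*) and 0 for responses that differ between populations. The deviations of same-numbered tumor and naive replicates correlated above 0 in every pair in LECs (0.20, 0.23 and 0.15), where the block changed no call. The same held in FRCs (0.25, 0.03 and 0.09), where the block changed the call. Pairs with different numbers reached -0.04 in LECs and 0.07 in FRCs. In BECs (0.04, -0.17 and -0.22) and DN cells (-0.03, -0.19 and -0.02) most or all same-numbered pairs were below 0. At the study's unadjusted threshold the methods' t-test called 5 of the 9 genes in FRCs, 1 in BECs and 0 in LECs and DN cells, where it called 29.8%, 16.5%, 12% and 8.83% of all genes, and after adjustment 1 in FRCs (*Tgfb1*) and 0 elsewhere.

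Of the 50 other pathway genes, each cell type fitted alone called 8 in FRCs, 0 in BECs and 0 in DN cells (4, 4 and 2 in the main model), array weights called 18, 21 and 6, the methods' t-test 1, 0 and 0, and the values without DN naive replicate 2 and DN tumor replicate 3 gave 8, 7 and 11. The replicate block gave 2 in FRCs, the second strip alone 1 in BECs and the mean of all kept probes 1 in DN cells. With 1 replicate left out the counts ran from 1 to 6, 0 to 5 and 1 to 8.

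Over all genes, higher and lower calls in DN cells were 628 and 340, against 491 and 412 with 75th percentile scaling. Array weights gave 2519 and 2683 in FRCs (840 and 541 in the main model), 1937 and 2012 in BECs (472 and 195), 346 and 183 in LECs (102 and 18) and 1175 and 941 in DN cells. Each cell type fitted alone gave 1310 and 1147 in FRCs, 113 and 17 in BECs and 0 in DN cells. The methods' t-test gave 451 and 197 in FRCs and 0 elsewhere after adjustment. Without DN naive replicate 2 and DN tumor replicate 3, calls were 1413 and 1109 in FRCs and 919 and 579 in BECs. They were 1552 and 1657 in DN cells with that choice. With 1 replicate left out, calls ran from 343 and 139 to 1152 and 826 in FRCs, 152 and 31 to 885 and 481 in BECs, 10 and 1 to 138 and 49 in LECs, and 217 and 95 to 1248 and 892 in DN cells. Strips of 1 replicate differed by up to 0.76 for the 9 genes. All replicate values of the 9 genes lay above the background level of 5.57, the lowest being 6.60 for *Tgfb3* in naive BECs.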
